A study of Mus musculus with 52 samples.

Results

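Paired promoters were defined as autosomal promoters whose interval of 400 bp lay on the same chromosome as that of another promoter, with starts 1 to 1000 bp apart. This held for 2554 of the 19900 autosomal promoters, which formed 1277 pairs with each promoter in exactly 1 pair. In 979 pairs the starts were under 400 bp apart, so that the intervals overlapped and reads in the common stretch were counted for both promoters. The other 298 pairs, 596 promoters, had no base in common. No measured value was used to choose them.

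Promoters of this kind mostly belong to genes that lie head to head and are transcribed away from each other from 1 stretch of open chromatin. Such bidirectional promoters are common in mammalian genomes, usually coincide with CpG islands and often serve DNA repair, mitochondrial and other housekeeping genes. CpG islands escape DNA methylation and are bound through ZF-CxxC domains by the lysine demethylases KDM2A and KDM2B, of which KDM2B also recruits a Polycomb repressive complex. Since 1 nucleosome-free region can serve both genes, the level of both promoters and any change in it can be compared within a pair.

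In calibrated ATAC-seq (cATAC-seq), Tn5 transposase tags open DNA, and Drosophila SG4 cells mixed into each sample serve as a reference. The cells were mouse embryonic stem cells (mESCs). There were 4 conditional lines, all carrying a CRE that 4-hydroxytamoxifen (800 nM for 96 h) switches on. Kdm2a/b-JmjC cells, derived from mice bred from targeted mESCs, then lose the exons for the JmjC domain of KDM2A and KDM2B and with them the long forms of both proteins, whereas Kdm2a/b-CXXC cells lose the ZF-CxxC domain of both proteins, and Kdm2a-CXXC or Kdm2b-CXXC cells that of the one named. Every line was measured untreated and after tamoxifen, with 4 libraries of each in Kdm2a/b-CXXC and 3 of each in the other lines, 26 ATAC libraries in all. The Kdm2a-CXXC and Kdm2a/b-CXXC lines were made by CRISPR targeting of Rosa26::CreERT2 cells and of Kdm2b-CXXC cells, so each is a selected line. Tamoxifen-treated cells without floxed alleles were not analysed here, so effects of tamoxifen or of CRE itself cannot be told apart from those of the deletions.

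The libraries held 1.49 to 3.03 M promoter reads, and a promoter held a median of 58 to 108 reads in a library. All levels below are calibrated reads, in other words reads after division by a spike-in size factor of each library. The study describes its libraries as biological replicates, and neither it nor the labels say whether each was a separate culture, so the p-values measure the spread between these libraries. The promoters of the pluripotency genes Sox2, Klf4 and Zfp42 exceeded 82.7% or more of all autosomal promoters in untreated cells and Pou5f1 and Nanog stood near the middle, at 48.7% and 55.7%, while the annotated Esrrb promoter exceeded only 17.8%. Of the promoters of other tissues, liver Alb exceeded 4.70%, pancreatic Ins2 8.94%, T cell Cd4 9.58% and muscle Myod1 32.5%, the last above Esrrb. The deleted exons lie outside promoter intervals, so the deletions themselves cannot be checked in these values.

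The stretches that 2 overlapping promoters shared are shown for 7 textbook pairs, in order of length, because the shared length goes with how closely the promoters of a pair agreed (below). They are plus-strand sequence of GRCm38.p6 (mm10) from RefSeq, in lower case with matches to the searched motifs in capitals. The motifs, matched exactly on either strand, were the CCAAT box (CCAAT, bound by NF-Y), the GC box (GGGCGG, bound by SP1), an ETS core (CCGGAAG), an NRF1 core (GCGCATGC), a YY1 core (AAGATGGC) and a TATA box (TATAAA).
Surf2 and Surf1, 290 bp: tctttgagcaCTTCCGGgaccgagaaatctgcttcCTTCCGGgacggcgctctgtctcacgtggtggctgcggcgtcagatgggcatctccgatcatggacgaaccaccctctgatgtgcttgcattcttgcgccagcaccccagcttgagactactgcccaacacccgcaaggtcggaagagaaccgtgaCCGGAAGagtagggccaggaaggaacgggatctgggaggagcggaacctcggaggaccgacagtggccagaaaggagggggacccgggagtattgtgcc
Mcm7 and Ap4m1, 242 bp: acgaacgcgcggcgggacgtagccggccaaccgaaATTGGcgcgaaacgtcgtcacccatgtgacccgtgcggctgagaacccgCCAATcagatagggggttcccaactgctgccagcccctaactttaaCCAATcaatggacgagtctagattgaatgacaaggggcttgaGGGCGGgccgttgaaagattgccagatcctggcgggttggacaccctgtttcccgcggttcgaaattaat
Paics and Ppat, 232 bp: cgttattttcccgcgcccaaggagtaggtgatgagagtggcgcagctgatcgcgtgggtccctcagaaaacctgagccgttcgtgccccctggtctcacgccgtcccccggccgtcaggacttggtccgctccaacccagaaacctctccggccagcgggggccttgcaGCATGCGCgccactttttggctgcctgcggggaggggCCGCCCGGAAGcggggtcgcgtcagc
Mrps12 and Sars2, 214 bp: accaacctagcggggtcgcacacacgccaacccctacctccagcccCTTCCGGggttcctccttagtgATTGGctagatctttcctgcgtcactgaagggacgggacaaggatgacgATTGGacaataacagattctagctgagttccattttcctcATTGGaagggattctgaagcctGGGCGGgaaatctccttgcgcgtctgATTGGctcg
Hspd1 and Hspe1, 185 bp: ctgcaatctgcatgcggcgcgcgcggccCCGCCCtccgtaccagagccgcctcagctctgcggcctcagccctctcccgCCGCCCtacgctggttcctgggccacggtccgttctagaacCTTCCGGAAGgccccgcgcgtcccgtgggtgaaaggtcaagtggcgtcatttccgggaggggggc
Fen1 and Tmem258, 142 bp: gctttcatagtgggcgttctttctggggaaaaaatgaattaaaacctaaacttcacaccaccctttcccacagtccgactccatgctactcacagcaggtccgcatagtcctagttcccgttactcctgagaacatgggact
Atm and Npat, 25 bp: ctcgctcccgcaactCCGCCCaggg
They lie at chr2:26916331-26916620 (Surf2, Surf1), chr5:138171821-138172062 (Mcm7, Ap4m1), chr5:76951379-76951610 (Paics, Ppat), chr7:28741768-28741981 (Mrps12, Sars2), chr1:55087948-55088132 (Hspd1, Hspe1), chr19:10204002-10204143 (Fen1, Tmem258) and chr9:53536847-53536871 (Atm, Npat). The Surf stretch held 3 ETS cores, the Mrps12 and Sars2 stretch 4 CCAAT boxes and the Mcm7 and Ap4m1 stretch 3, whereas the Fen1 and Tmem258 stretch held none of these motifs. A match describes the letters only.

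Of the 1254 pairs with an annotated strand for both genes, 1029 (82.1%) were divergent, with the transcripts running away from each other, and 225 were facing, with the plus-strand start to the left so that the first parts of both transcripts overlap. Divergent pairs made up 834 of 961 overlapping pairs and 195 of 293 pairs without overlap. No pair had both genes on 1 strand, but this is a property of the promoter set, which held no neighbouring same-strand promoters with starts closer than 2013 bp. By RefSeq identifier 845 pairs joined 2 mRNA genes, 420 an mRNA and a non-coding RNA gene, and 12 a pair of non-coding RNA genes. Distances ran from 2 bp (Col4a1 and Col4a2, chains of basement membrane collagen) to 999 bp. Per chromosome the paired share ran from 10.1% on chromosome 6 to 15.6% on chromosome 12.

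Gene families differed in how many of their promoters were paired, against 12.8% of all autosomal promoters. Paired were 25 of 74 mitochondrial ribosomal proteins (33.8%; Mrpl30 with Mitd1, Mrps26 with 4930473A02Rik, Mrpl47 with Ndufb5, Mrpl50 with Zfp189), 11 of 33 subunits of respiratory complex I (33.3%; Ndufb3 with Fam126b, Ndufs1 with Eef1b2) and 9 of 33 aminoacyl-tRNA synthetases (27.3%; Rars2 with Orc3, Yars with S100pbp). The shares were 9 of 44 for proteasome subunits, 10 of 66 for cytosolic ribosomal proteins and 37 of 221 for transmembrane proteins with Tmem symbols. Only 23 of 301 zinc finger genes with Zfp symbols (7.64%), 1 of 450 olfactory receptor genes (Olfr13), 1 of 12 histone genes matched by symbol (H1f10) and 0 of 35 protocadherin genes were paired. The Mrpl47 and Ndufb5 pair joined a mitochondrial ribosomal protein to a complex I subunit and was counted in both families. These are counts of positions, with no accessibility in them.

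By base composition the pairs were mostly CpG islands. Being CpG-rich, here a GC content from 0.5 upwards and a CpG count at least 0.6 times that expected from base composition, held for 2124 paired promoters (83.2%) against 8832 of the 17346 other autosomal promoters (50.9%). The share was 87.3% in overlapping pairs, 69.6% in pairs without overlap, 84.99% in divergent and 76.4% in facing pairs. An ETS core stood in 27.3% of paired and 12.3% of other intervals (14.2% of all autosomal intervals), and among CpG-rich promoters in 31.3% and 19.5%. The CCAAT box was about as frequent in both (41.7% and 39.5%; 39.8% of all), the GC box was in 73.1% and 54.1% (56.6% of all), the YY1 core in 7.67% and 4.15% (4.598% of all) and the NRF1 core in 5.48% and 3.71% (3.93% of all). The TATA box was in 5.13% and 11.1% (10.4% of all). Among CpG-rich promoters alone, the shares in paired and other promoters were 41.8% and 36.5% for the CCAAT box, 79.5% and 83.6% for the GC box, 8.95% and 6.01% for the YY1 core, 6.21% and 6.05% for the NRF1 core and 4.10% and 4.61% for the TATA box. Overlapping partners share sequence and are not independent.

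Within divergent overlapping pairs with starts from 100 to under 400 bp apart (543 pairs), the motifs lay mainly between the interval centres, which mark the annotated transcription starts. CCAAT boxes numbered 4.25 per kb between the centres and 0.760 per kb in the outer parts of the intervals, GC boxes 6.80 and 2.86, ETS cores 1.18 and 0.506 and NRF1 cores 0.486 and 0.0414. YY1 cores went the other way, at 0.150 and 0.221 per kb. In a divergent pair the stretch between the centres is upstream of both starts and the outer parts are downstream. For comparison, the 200 bp upstream of 8780 other CpG-rich promoters held 2.21 CCAAT boxes, 7.49 GC boxes, 0.703 ETS cores and 0.327 NRF1 cores per kb. The 200 bp downstream of them held 0.522, 4.30, 0.455 and 0.0940. YY1 cores numbered 0.0661 upstream and 0.230 downstream. The skew to the upstream side was thus not particular to pairs. The stretch between 2 divergent starts held more CCAAT boxes and ETS cores per kb than the upstream side of other CpG-rich promoters. It held slightly fewer GC boxes, at a GC content of 63.1% against 65.1%. The 2 sets are not alike, since this stretch is upstream of 2 starts at once and the pairs were not restricted to CpG-rich promoters. Whether that accounts for the higher densities was not tested.

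Paired promoters were more accessible than other autosomal promoters in every library. The median paired promoter had 140.9 ± 4.70 calibrated reads in untreated Kdm2a/b-JmjC cells (SD, n = 3) against 61.1 ± 1.67 at the others, 118 ± 4.04 against 53.9 ± 1.88 in Kdm2a/b-CXXC (n = 4), 181 ± 14.2 against 68.8 ± 4.98 in Kdm2a-CXXC (n = 3) and 179 ± 47.3 against 78.7 ± 20.7 in Kdm2b-CXXC (n = 3). The Kdm2b-CXXC medians were widely spread between libraries in both sets, whereas the difference within a library was not. The difference between the medians was 1.21 ± 0.101 on the log2(calibrated reads + 1) scale over the 13 untreated libraries (2.31-fold), from 1.11 to 1.402, and lay above 0 in 13 of 13 (exact two-sided sign-flip test over libraries, p = 0.000244, the smallest that 13 libraries allow). By line it was 1.19 ± 0.0126, 1.12 ± 0.00668, 1.38 ± 0.0236 and 1.18 ± 0.00949 in the order above, so Kdm2a-CXXC libraries stood above all others. These 13 libraries came from 4 lines, and libraries of 1 line are more alike than those of different lines.

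The size of the difference depended on which promoters were compared. Among CpG-rich promoters it was 0.34 (1.26-fold; 0.30 to 0.39), among promoters past the filter on low reads it was 0.76, and among the promoters that were not CpG-rich it was 1.95. In each of these sets all 13 libraries lay above 0. Averaged over 10 bins of GC content it was 1.12. At the low end, 0% to 0.196% of paired promoters and 0.0865% to 1.69% of the others held no read in a library. Paired promoters, 12.8% of the autosomal set, held 20.6% to 21.6% of the calibrated reads summed over its intervals. Reads in a stretch shared by overlapping intervals enter this sum for both promoters, which raises the share.

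Accessibility was highest in overlapping pairs. On the log2 scale their median lay 1.30 above that of other promoters (1.18 to 1.51 over 13 libraries) and that of pairs without overlap 0.69 above (0.61 to 0.84), and overlapping pairs lay above pairs without overlap in 13 of 13 libraries, by 0.61 ± 0.0462. By distance the median over the 13 untreated libraries was 134 calibrated reads under 100 bp, 165 from 100 bp, 160 from 200 bp, 153 from 300 bp, 113 from 400 bp and 88.4 from 600 to 1000 bp, against 60.9 at other promoters. The log2 differences from other promoters in the last class (0.42 to 0.56 over libraries) lay below all those from 400 to under 600 bp (0.76 to 1.02), whereas the ranges from 200 and from 300 bp overlapped. A read in a shared stretch counts for both promoters, so closely overlapping promoters are nearly 1 measurement. With only the first promoter of each pair the difference from other promoters was 1.21. Overlapping partners have similar levels and each kept interval still holds the shared reads, so this value cannot measure an effect of sharing.

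**Figure D1:**
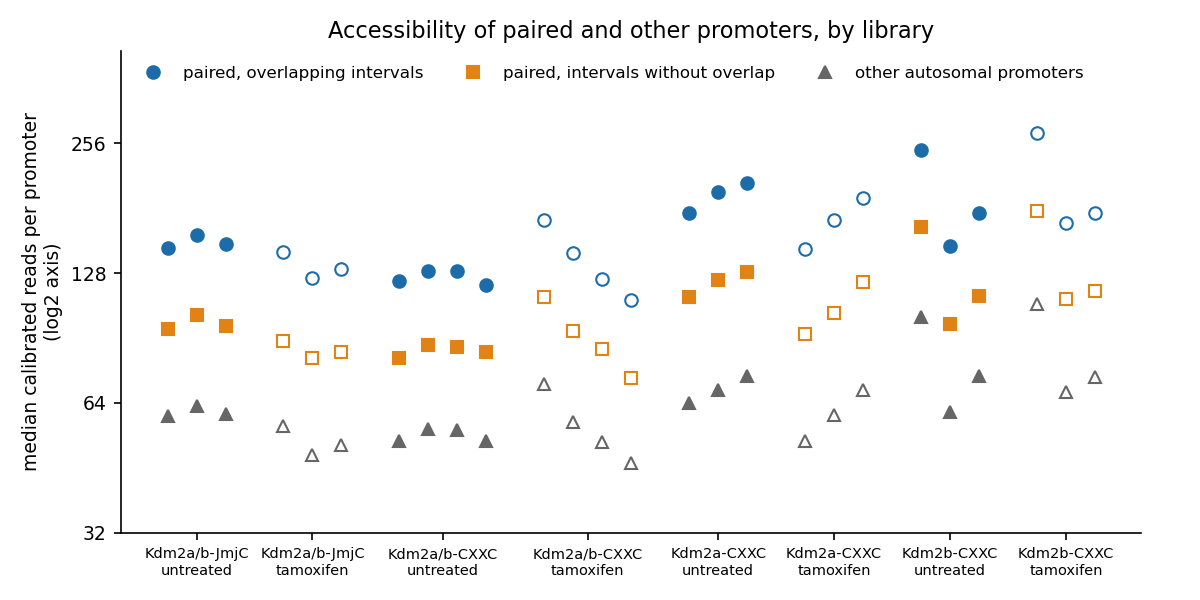
Median calibrated reads per promoter (log2 axis) in each of the 26 libraries, grouped by line and treatment, with filled symbols for untreated and open symbols for tamoxifen-treated libraries. In every library overlapping pairs (circles) lie above pairs without overlap (squares) and these above other autosomal promoters (triangles), at any overall height of the library.

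Orientation and gene type also went with level. Divergent pairs had a median of 148 calibrated reads and facing pairs 96.0. Overlap was found in 834 of 1029 divergent and 127 of 225 facing pairs. Pairs of an mRNA and a non-coding RNA gene held 566 of 2058 divergent and 254 of 450 facing promoters. Orientation was thus not separated from overlap and gene type in these medians. Pairs of mRNA genes had 154 against 106 for pairs with a non-coding RNA gene and 28.1 for the 24 promoters of pairs of non-coding RNA genes. Non-coding RNA promoters paired with an mRNA promoter had 99.94, against 10.5 at the 1554 other non-coding RNA promoters, and their mRNA partners had 110, against 70.8 at other mRNA promoters. These sets differ in composition, with 72.4% of the paired and 12.5% of the other non-coding RNA promoters CpG-rich. Of the 420 mixed pairs, 304 overlap, so that reads at the mRNA promoter also count for its non-coding partner. In 69 facing pairs of this mixed kind without overlap, the mRNA promoter was the more accessible in 57, by a median of 0.86 ± 0.0939 on the log2 scale over 13 untreated libraries (0.68 to 1.01; 1.81-fold). In 44 divergent mixed pairs without overlap, the mRNA promoter was the higher in 20 and the non-coding RNA promoter in 24, and the median difference was -0.030 ± 0.0870 with library values on both sides of 0. In the 58 facing mixed pairs with overlap the median difference was 0.14 (0.055 to 0.24), with the mRNA promoter higher in 41. In the 239 divergent mixed pairs with overlap it was 0.0086 (0 to 0.023), with the mRNA promoter higher in 132 and the non-coding RNA promoter in 107. The median difference was thus above 0 in every library in facing pairs, at or just above 0 in divergent pairs with overlap, and on both sides of 0 in divergent pairs without overlap.

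How closely 2 promoters of a pair agreed fell steeply with distance, along with the share of the interval they had in common. Replicate agreement was taken as Pearson's r, over 26 libraries, between the deviations of both promoters from their group means after TMM scaling, and is given as a description. Its median was 0.961 in 320 pairs under 100 bp apart, whose intervals share a median of 85.3% of their length, 0.903 from 100 bp (63.8% shared), 0.678 from 200 bp (39.9% shared) and 0.386 from 300 bp (15.8% shared). Without overlap it was 0.116 from 400 to under 600 bp and 0.0165 from 600 to 1000 bp. Neighbouring promoters farther apart had 0.0208 over 1000 and up to 5000 bp, 0.0274 up to 20000 bp and 0.0258 up to 100000 bp. Such neighbours can include a promoter of a pair beside the next promoter on its other side. Over all 282 pairs without overlap that passed the filter in every line the median was 0.0690, with its middle values between -0.151 and 0.237, and by line it was 0.159 in Kdm2a/b-JmjC libraries, 0.0181 in those of Kdm2a/b-CXXC, 0.0472 for Kdm2a-CXXC and -2.5e-05 for Kdm2b-CXXC. Neighbours over 1000 and up to 5000 bp apart had 0.0493, -0.0318, 0.00054 and 0.0545, so the pairs without overlap lay higher in 3 of 4 lines and lower in Kdm2b-CXXC.

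On the calibrated scale as deposited the same medians were 0.962 for overlapping pairs, 0.581 for pairs without overlap and 0.457 for neighbours up to 5000 bp apart. Spike-in size factors move all promoters of a library together, and this common part adds to every such correlation.

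Levels of partners, too, were less alike at larger distances. The untreated levels of partners differed by a median of 1.03-fold under 100 bp, 1.07-fold from 100 bp, 1.18-fold from 200 bp and 1.31-fold from 300 bp, then by 1.68-fold from 400 bp and 2.00-fold from 600 to 1000 bp. Neighbours up to 5000 bp apart differed by 2.02-fold. A difference over 2-fold was found in 30 of 956 overlapping pairs and in 120 of 282 pairs without overlap (42.6%), against 50.4% of these neighbours. The replicate SD of the log2 ratio within a pair was 0.280 times the counting error expected of independent reads under 100 bp, and 1.30 times in pairs without overlap, beside 1.36 times in these neighbours. For the 19 pairs 2 to 11 bp apart, the reads of both promoters differed by a median of 0.820% in a library.

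**Figure D2:**
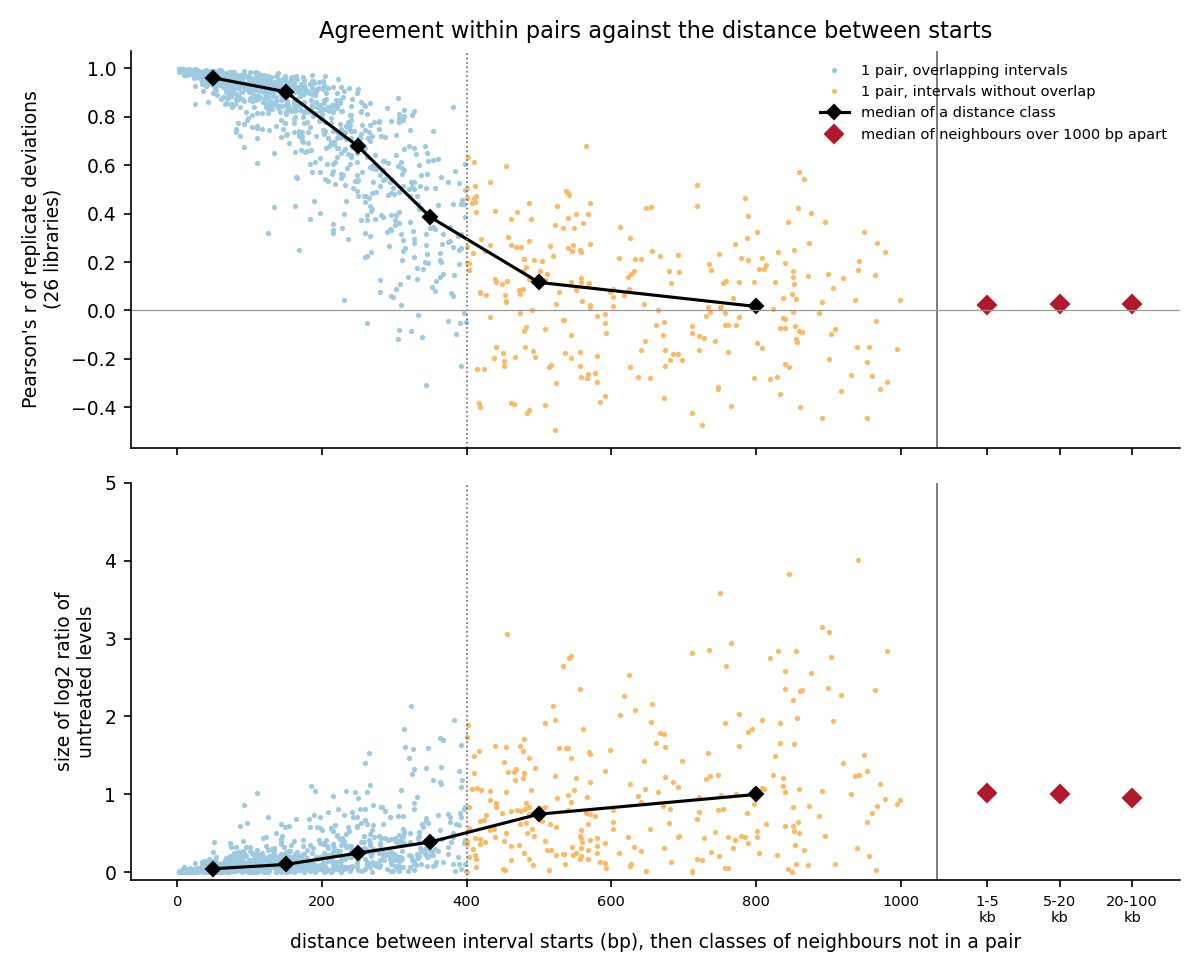
Agreement within pairs against the distance between starts (bp), for pairs past the filter in all 4 lines. The upper plot shows Pearson's r of replicate deviations over 26 libraries and the lower one the size of the log2 ratio of untreated levels, with 1 dot per pair, black diamonds for medians of distance classes and red diamonds for neighbours farther apart. Both reach the values of far neighbours between 400 and 1000 bp, past the dotted line at 400 bp where overlap ends.

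Replicates of paired promoters were on the whole less variable than those of others. The median SD between replicates (log2, TMM scaling) was 0.166 at 2489 paired and 0.208 at 13051 other promoters past the filter in every line. In the lowest of 5 level bins it was 0.360 and 0.405, in the next bin 0.252 and 0.255, and in the highest 0.135 and 0.136. The gap between paired and other promoters was thus as large as overall in the lowest bin, where median levels also differed (4.93 against 4.58 on the log2 scale), and smaller in the bins above it.

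Of 19 textbook pairs, 17 met the definition. Trp53 and Wrap53, with starts 1034 bp apart, and Polg and Fanci did not. At Col4a1 and Col4a2 (2 bp) untreated levels ran from 59.1 through a median of 122 to 172 and from 58.1 through 121 to 172, and r was 0.998, which is nearly 1 set of reads counted for both. Apex1, an endonuclease of base excision repair, had 112, 185 and 309 calibrated reads (lowest, median, highest) and Osgep, a tRNA-modifying enzyme 55 bp away, 120, 190 and 323, with r = 0.971.

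At Mrps12 (mitochondrial ribosomal protein; 200.7, 270 and 432) and Sars2 (mitochondrial seryl-tRNA synthetase; 236, 301 and 456), 186 bp apart, r was 0.949, and Sars2 was the higher in 13 of 13 libraries, by a median of 1.11-fold. Hspd1, the mitochondrial chaperonin HSP60, had 162, 279 and 522 calibrated reads, and its co-chaperonin gene Hspe1, 215 bp away, 193, 372 and 624. Hspe1 was higher in 13 of 13 libraries, by a median of 1.19-fold, with r = 0.740. The repair genes Brca1 (180, 221 and 390) and Nbr1, an autophagy receptor (192, 241 and 402), had r = 0.938 at 151 bp, and Pms2 and Aimp2 had r = 0.939 at 161 bp with a median ratio of 1.00.

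Agreement was lower in the textbook pairs with starts farthest apart. Fen1, the flap endonuclease (102, 133 and 209), and Tmem258 (86.2, 110 and 136), 258 bp apart, had r = 0.472. Atm, a kinase of the double-strand break response (132, 183 and 318), and Npat, a coactivator of histone genes (155, 228 and 360), shared 25 bp and had r = -0.0441. Mcm4, a subunit of the replicative helicase (172, 267 and 498), and Prkdc, the catalytic subunit of DNA-dependent protein kinase (98.98, 106 and 172), are 465 bp apart with no base in common, and Mcm4 was higher in 13 of 13 untreated libraries, by a median of 2.36-fold, with r = -0.385. Paics and Ppat, enzymes of purine synthesis that share 232 bp, were an exception among long overlaps, with r = 0.248, although their levels differed by a median of only 1.09-fold. The least accessible textbook promoters were those of Col4a3 and Col4a4, kidney and inner ear collagen chains, with a median of 39.2 each.

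**Figure D3:**
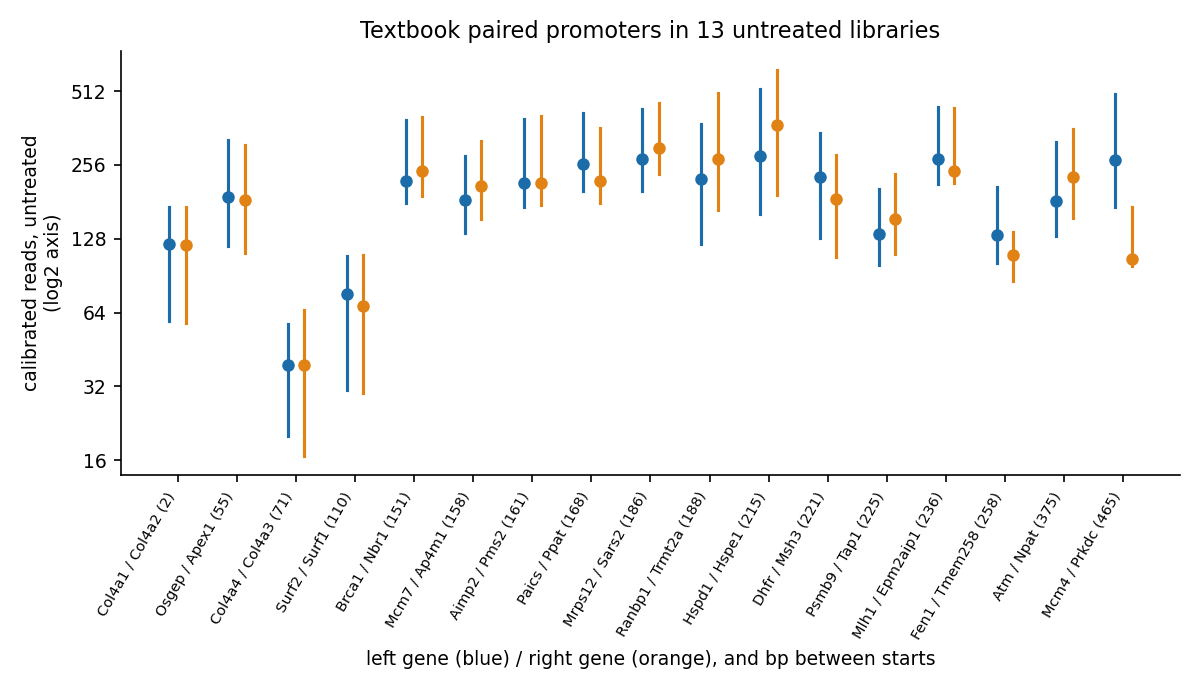
Calibrated reads (log2 axis) of the 17 textbook pairs over 13 untreated libraries, with points for medians and lines from the lowest to the highest library, the left gene in blue and the right one in orange, ordered by the distance between starts given in brackets. Partner medians lie close together in the overlapping pairs, and Mcm4 lies above Prkdc at 465 bp.

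Among pairs without overlap, those with the highest level at both promoters were Ddx5 with Cep95, Prr11 with Ska2, Setd3 with Ccnk, Prmt1 with Gm15545 and Cdca2 with Kctd9. Ddx5, an RNA helicase, had 227, 296 and 478 calibrated reads in untreated libraries, and Cep95, a centrosomal protein gene 757 bp away, 243, 302 and 499. Ska2, a kinetochore protein, was above Prr11 in 13 of 13 libraries, by a median of 1.24-fold (median 351 against 275). Setd3, an actin methyltransferase, and Ccnk, the cyclin of CDK12, had medians of 247 and 238 with no constant order. Levels in these 5 pairs were alike by the rule that chose them, and r lay between -0.0835 and 0.286.

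The opposite cases were pairs without overlap in which 1 promoter was far more accessible than the other. Tmtc3 had 158, 199.4 and 337 calibrated reads, and Cep290, a ciliary protein gene 941 bp away, 7.08, 14.3 and 20.7, a median difference of 14.8-fold. Tor1aip2 had a median of 145 and Tor1aip1 9.37 (14.04-fold; both encode membrane proteins that activate torsin ATPases), Wdr77, a subunit of the methylosome, 196 and Atp5pb, a subunit of ATP synthase, 16.9 (12.3-fold). Foxj3 had 135 against 17.2 at Frg2f1 (8.11-fold) and C530005A16Rik 206 against 24.4 at Ccdc17 (8.16-fold). These 5 pairs were chosen for the largest difference in untreated level. That the order held in 13 of 13 of the same libraries therefore follows largely from the choice. The less accessible promoter of each had the lower GC content, from 39.2% to 51.0%, against 61.0% to 76.8% at the more accessible one. The less accessible intervals are centred on the RefSeq starts in use here, and a start used in these cells that lies elsewhere would not be counted in them.

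Just inside the limit of 1000 bp, Ddx25 and Pus3 (995 bp) had medians of 53.8 and 92.2. Just outside, Bet1l and Ric8a had 127 and 77.9 and Kmt2c and 4831440E17Rik 97.5 and 187, both with starts 1013 bp apart.

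Whether loss of KDM2 function moved paired promoters differently from others was asked next, with each treated library set against the mean of the untreated ones of its line. The promoters past the filter numbered 2507 of 2554 in Kdm2a/b-JmjC cells, 2496 in Kdm2a/b-CXXC cells, 2519 where KDM2A alone and 2527 where KDM2B alone loses its ZF-CxxC domain, and 77.3% to 85.7% of the others passed. On the calibrated scale the median log2 change over paired promoters was -0.20, 0.11, -0.18 and 0.11 and over others -0.21, 0.086, -0.17 and 0.10, in that order. The difference between paired and other promoters was 0.011, 0.023, -0.0082 and 0.0050 (exact two-sided permutation tests over libraries, p = 0.5, 0.0571, 0.1 and 0.7, adjusted over the 4 lines 0.667, 0.2, 0.2 and 0.7; the smallest p possible is 0.1 with 3 libraries against 3 and 0.0286 with 4 against 4). The paired median thus moved a little less than the other in Kdm2a/b-JmjC and a little farther in the other 3 lines, and no difference passed the test. In Kdm2a/b-CXXC, 3 of 4 treated libraries lay above all untreated ones, with the values 0.017, 0.036, 0.033 and 0.0014. In Kdm2a-CXXC all 3 treated libraries (-0.011, -0.016 and -0.0089) lay below the untreated ones (-0.0076, -0.0013 and -0.0019).

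**Figure D4:**
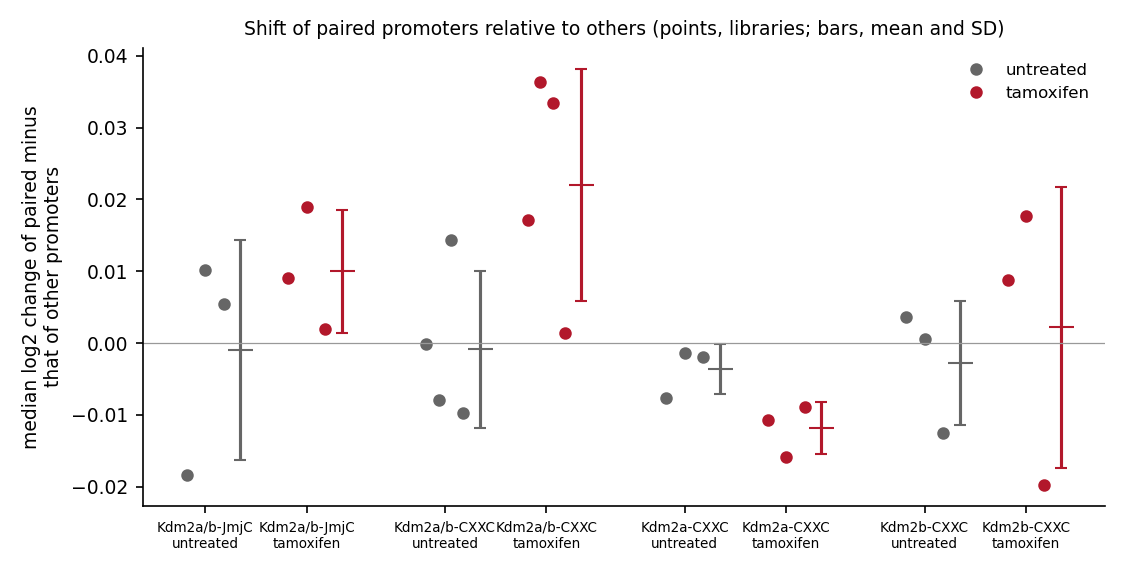
Median log2 change of paired promoters minus that of other autosomal promoters, relative to the untreated mean of the line, with 1 point per library and bars for the mean and SD of each group (3 or 4 libraries). The 26 values lie between -0.0198 and 0.0363, and the groups overlap except in Kdm2a-CXXC, where the treated libraries lie lower.

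Without a replicate block, no paired promoter changed by limma, at an adjusted p under 0.05 with a fold change over 1.4, in any line. In Kdm2a/b-JmjC this was 0 of 2507 against 13 of 17174 promoters tested in all (0.0757%), and in the other lines no promoter of any kind was called. At an unadjusted p under 0.05 there were 551 paired promoters in Kdm2a/b-JmjC, 547 of them lower after tamoxifen (22.0%, against 20.6% of all promoters tested), 94 in Kdm2a/b-CXXC (3.77% against 4.65%), 205 in Kdm2a-CXXC (8.14% against 8.39%) and 1 in Kdm2b-CXXC (0.0396% against 0.669%). The shares lay near those of all promoters in the first 3 lines and below that of all promoters in Kdm2b-CXXC. The edgeR quasi-likelihood test on recovered reads called 13 paired promoters in Kdm2a/b-JmjC and 0 in the other lines, DESeq2 called 1 (0.0699% of all promoters tested) and 0. The median change of all tested promoters was -0.21, 0.087, -0.18 and 0.099 on the calibrated scale and lay between -0.0029 and 0.0012 with TMM scaling, and with TMM scaling limma called 0 paired promoters in each line. With the replicate number as a block, limma called 14 paired promoters in Kdm2a-CXXC, all lower (188 of all promoters, 1.06%), and 3 in Kdm2a/b-JmjC (62 of all promoters, 0.361%). In Kdm2a-CXXC the block left 27.6% of paired promoters under an unadjusted p of 0.05, against 22.0% of all promoters. Without tamoxifen replicate 1, limma called 83 paired promoters in Kdm2a/b-JmjC, all lower (of 607 promoters in all, 3.39% of those tested). In Kdm2b-CXXC the share of all promoters under an unadjusted p of 0.05 was 0.669% on the calibrated scale. It was 7.74% with TMM scaling and 9.96% with the replicate block. Calibrated levels of this line were widely spread between libraries, and whether this limits its tests was not tested.

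The 13 paired promoters that edgeR called in Kdm2a/b-JmjC (114 of all 17174 tested, 0.664%) were named after their values were seen, and all were lower after tamoxifen. Me1, the cytosolic malic enzyme, fell from 105 to 58.6 calibrated reads (edgeR adjusted p = 0.0372) and its partner A330041J22Rik, 473 bp away, had a limma log2 change of -0.52. Rom1, a photoreceptor disc protein, fell from 111 to 63.5 (edgeR adjusted p = 0.0388), and Rnf170, a ubiquitin ligase, from 249 to 175 (edgeR adjusted p = 0.0421). Hira, a histone chaperone, went from 209 to 143 with its partner Mrpl40 at a log2 change of -0.51. The others were Ppp1r15a and Plekha4 (partners 61 bp apart), Phf7, Ina, Acbd4, Ddx25, Tmem8b, Bola2 and Ccdc96. Adjusted p-values by limma for the 13 lay between 0.0505 and 0.0699. The partner had a negative log2 change as well in 12 of the 13, with Nt5c2 (0.19), 492 bp from Ina, as the exception. In this line 93.8% of all overlapping pairs and 78.0% of pairs without overlap changed with the same sign, and 10 of the 13 overlap their partner.

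Changes of 2 partners resembled each other where intervals overlapped. Across 962 overlapping pairs in Kdm2a/b-JmjC, Pearson's r between the log2 changes of both promoters was 0.763, and it was 0.788, 0.767 and 0.827 in the other lines in the order above. Across 286, 285, 285 and 290 pairs without overlap it was 0.0524, 0.235, 0.197 and 0.182. These are descriptions across pairs, which share libraries and, in the first case, reads. The median size of the difference between the changes of partners was 0.038 to 0.047 with overlap and 0.14 to 0.17 without.

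**Figure D5:**
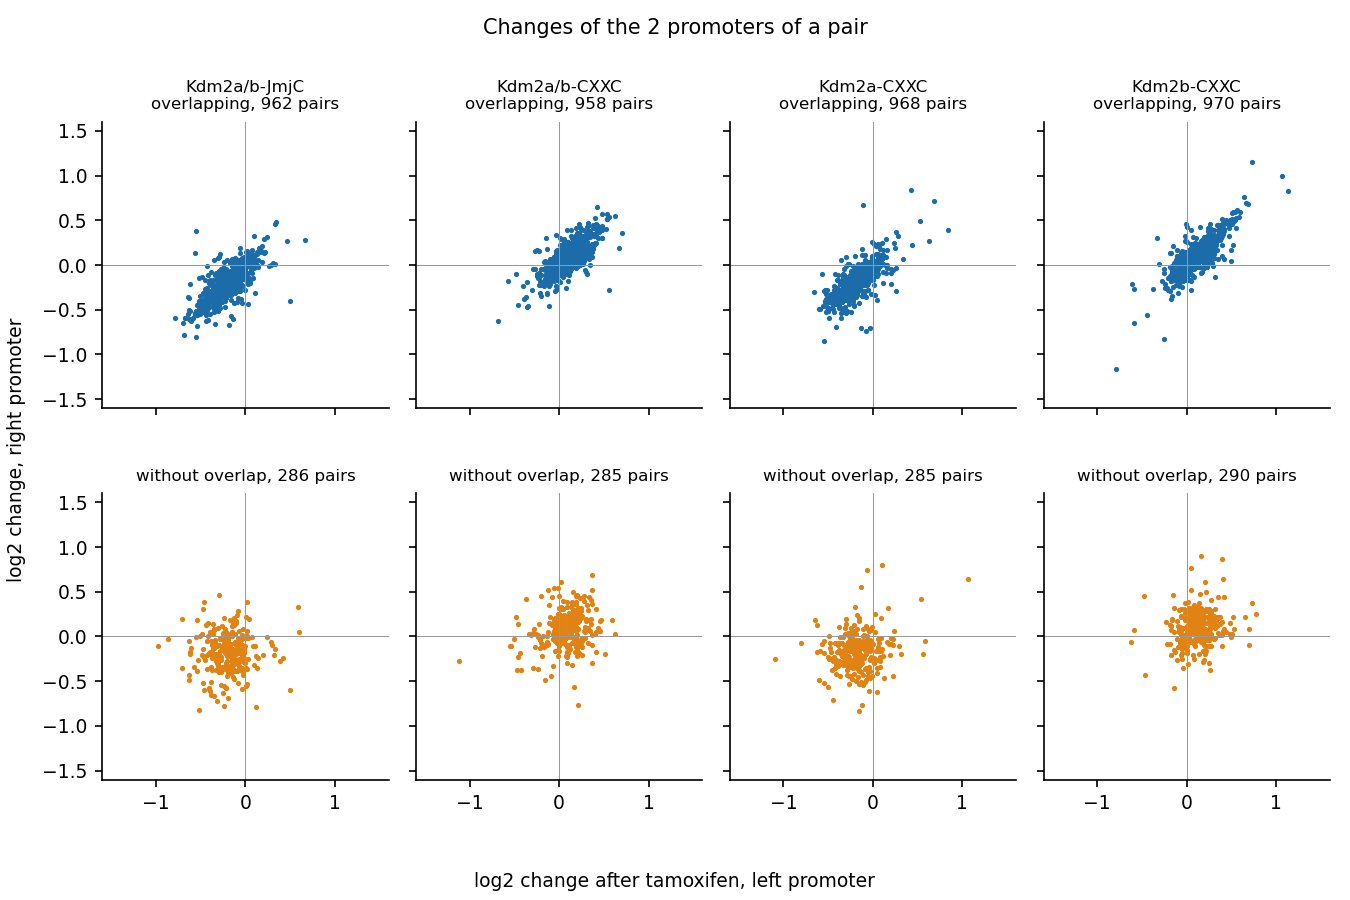
Log2 change after tamoxifen (calibrated scale, pseudocount of 1) of the right promoter of each pair against that of the left one, for the 4 lines, with overlapping pairs in the upper and pairs without overlap in the lower row. Overlapping pairs lie along the diagonal, and pairs without overlap form round clouds that are displaced from 0 by the change common to all promoters of the line.

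The balance within a pair, the log2 ratio of the left to the right promoter, does not depend on the scaling of a library. It was tested by limma in 1248, 1243, 1253 and 1260 pairs, and no pair was called in any line at an adjusted p under 0.05 with a change over 1.4-fold. Unadjusted p-values under 0.05 were found for 76, 83, 71 and 71 pairs (6.09%, 6.68%, 5.67% and 5.63% of all pairs tested). The median size of the change was 0.051 to 0.060 over all pairs. Most of these pairs overlap (962 of 1248 in Kdm2a/b-JmjC), and reads counted for both promoters pull their ratio towards 1. A change over 1.4-fold could therefore hardly be seen in close pairs. In the 286, 285, 285 and 290 pairs without overlap, tested alone, the median size was 0.14 to 0.17, and 0 pairs were called.

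The pairs with the smallest p in each line are given with their values. In Kdm2a/b-CXXC, Kdm5a, a demethylase of histone H3 lysine 4, had 182, 190, 175 and 177 calibrated reads untreated and 302, 255, 225 and 165 after tamoxifen, and Ccdc77, which faces it at 271 bp, 168, 160, 159 and 154, then 203, 182, 158 and 114. Their log2 ratio went from 0.17 ± 0.0602 to 0.52 ± 0.0398 (SD, n = 4), a change of 0.35 ± 0.0420 (SE) with a limma adjusted p of 0.0482, under the fold required for a call. The same ratio changed by 0.032 in Kdm2a/b-JmjC, by -0.030 in Kdm2a-CXXC and by -2.0e-05 in Kdm2b-CXXC. Over the alternatives the limma adjusted p ran from 0.0464 to 0.307, and it was above 0.05 without any 1 library. Second in this line were 4933439C10Rik and Zkscan17, whose ratio changed by -0.78 (limma adjusted p = 0.285).

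In Kdm2a/b-JmjC, Tspan2, a tetraspanin gene, had 48.6, 53.5 and 59.6 calibrated reads untreated and 50.2, 25.1 and 38.9 after tamoxifen, while its antisense neighbour Tspan2os, 648 bp away, had 47.4, 50.8 and 52.2, then 80.1, 41.5 and 55.3. The ratio moved from 0.098 ± 0.0792 to -0.62 ± 0.111 (SD, n = 3; limma adjusted p = 0.112). Without stranded signal, reads here are assigned by position alone. The ratio of Gm13986 to Thbs1, the thrombospondin 1 gene, changed by -0.38 (limma adjusted p = 0.169).

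In Kdm2a-CXXC the first pair was Gt(ROSA)26Sor, the locus that commonly carries CreERT2 transgenes, with Setd5 394 bp away. The former had 280, 312 and 395 calibrated reads untreated and 221, 242 and 310 after tamoxifen and Setd5 98.4, 122 and 144, then 105, 120 and 155, so the ratio changed by -0.41 ± 0.0595 (limma adjusted p = 0.464). In the other lines it changed by -0.20, -0.037 and 0.13. Ifit1bl2 and Ifit1, interferon-induced genes, followed (-0.39, limma adjusted p = 0.464). In untreated Kdm2a-CXXC libraries Ifit1bl2 had 8.60, 11.4 and 17.2 calibrated reads and Ifit1 7.64, 9.90 and 16.2, so this change rests on few reads. The pairs with the smallest p in Kdm2b-CXXC were Mir1a-1hg with B230312C02Rik (-0.63, limma adjusted p = 0.130) and Ruvbl2, a subunit of chromatin remodellers, with Gys1, the muscle glycogen synthase (0.21, limma adjusted p = 0.732). The 8 pairs were selected for their p in the line given, and beyond Kdm5a with Ccdc77 none had an adjusted p under 0.05.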

How the data were processed

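The authors aligned reads with Bowtie2 to mm10 and dm6 and removed duplicates, and they counted mouse reads over promoters. The deposited values are a signal, reads divided by a spike-in size factor per library. Deposited means, fold changes, standard errors, test statistics, p-values and adjusted p-values were not used, nor were the libraries of input DNA. Libraries were grouped by their labels.

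Steps between values gave the size factors (0.718 to 1.41) and the reads, whole (within 0.01) for 100% of values. The main test was limma 3.58.1 with a mean-variance trend on log2(value + 1), after filterByExpr on the recovered reads, with Benjamini-Hochberg adjustment over all promoters (for the balance, over all pairs). The alternatives were edgeR 4.0.16 and DESeq2 1.42.0 on the reads, TMM and median-of-ratios scaling, other pseudocounts, no filter, a replicate block and leaving out libraries. Medians per library were compared by exact tests. Counting error alone understates the spread, so replicates were used.

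Tested on simulated data from each line, limma recovered 76% to 87% of promoters changed by 2-fold, with 5 to 8 false calls, and 82% to 88% of such balance changes. The simulated libraries had exact size factors, so they lacked the shifts common to all promoters of a real library. These shares therefore do not measure the sensitivity on the calibrated scale where such shifts are large. The simulated balance changes were in pairs without overlap only. Replicates differed beyond counting noise (chi-square per promoter 1.90 to 2.36), so no library was counted as a duplicate. Symbols were found for 2529 paired promoters. Coordinates are 1-based. Named pairs were textbook pairs, paired promoters called by limma, the 2 pairs per line with the smallest p for balance, 5 most accessible and 5 most unequal pairs without overlap, and those at the 1000 bp limit, of which 1 is not reported here. Members, lists and rules were chosen with earlier results of these data known.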

Additional observations from a re-analysis of the deposited data

Results flagged for a closer look

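After tamoxifen, the change of paired promoters minus that of other promoters lay above 0 in all treated libraries of Kdm2a/b-JmjC (mean difference from untreated 0.011) and of Kdm2a/b-CXXC (0.023), and below 0 in all 3 of Kdm2a-CXXC (-0.0082). The sign alone does not set treated libraries apart. Untreated values were -0.018, 0.010 and 0.0055 in Kdm2a/b-JmjC and -0.0076, -0.0013 and -0.0019 in Kdm2a-CXXC. Above all untreated libraries lay 1 of 3 treated ones in Kdm2a/b-JmjC and 3 of 4 in Kdm2a/b-CXXC, and below all of them 3 of 3 in Kdm2a-CXXC. The difference between the lines was not tested. The mean differences are small beside the change common to all promoters, and that of Kdm2a-CXXC became 0.011 among CpG-rich promoters alone. In 10 sets of values large enough for such a search, no library stood far from the others.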

How the results depend on the processing

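The level difference stayed above 0 with an exact p of at most 0.000488 under all 22 alternatives, from 0.34 to 1.30, and from 1.19 to 1.22 without 1 library. Agreement on the calibrated scale as deposited was 0.962 for overlapping pairs and 0.581 without overlap, and neighbours over 1000 and up to 5000 bp apart had -0.0038 without the Kdm2a/b-JmjC line. The shift of paired promoters passed no threshold under any alternative, which designs of this size hardly allow. It turned in sign in Kdm2a/b-CXXC with only pairs without overlap (-0.0025), in Kdm2a-CXXC among CpG-rich promoters (0.011) and in Kdm2b-CXXC with no filter (-0.0025), without untreated replicate 3 (-0.0025) and also without tamoxifen replicate 2 (-0.0027); the cause was not tested. Without 1 library it ran from 0.0039 to 0.020 in Kdm2a/b-JmjC, 0.016 to 0.030 in Kdm2a/b-CXXC, -0.013 to -0.0061 in Kdm2a-CXXC and -0.0027 to 0.016 in Kdm2b-CXXC.

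Paired promoters called in Kdm2a/b-JmjC numbered 0 by limma, 13 by edgeR, 1 by DESeq2 and 6 with a pseudocount of 5. These are 0%, 0.519%, 0.0399% and 0.239% of the paired promoters tested, against 0.0757%, 0.664%, 0.0699% and 0.413% of all promoters. Without 1 library they numbered 0 to 83, the most (83) when tamoxifen replicate 1 was left out, 1 without tamoxifen replicate 2, and 6 when untreated replicate 3 was left out. In these 3 settings 3.29%, 0.0398% and 0.239% of paired promoters were called, against 3.39%, 0.0687% and 0.336% of all promoters. In Kdm2a-CXXC the paired promoters called numbered 0 to 1, with 1 without tamoxifen replicate 3 (0.0396%, against 0.235% of all promoters). The cause was not tested. After TMM scaling, deviations of replicates with the same number correlated weakly across promoters (r from -0.0068 to 0.068). Libraries that correlated best with their own number were 6 of 6 in Kdm2a/b-JmjC, 3 of 8 in Kdm2a/b-CXXC, 4 of 6 in Kdm2a-CXXC and 4 of 6 in Kdm2b-CXXC. These correlations leave out shifts common to all promoters. On the calibrated scale such shifts went with the number in Kdm2a-CXXC (other promoters -0.12, 0.0055 and 0.12 untreated, -0.37, -0.16 and 0.027 treated) and Kdm2b-CXXC (0.41, -0.34 and -0.061 untreated, 0.53, -0.16 and -0.049 treated). Whether the numbers pair the samples is not stated in the labels. With the replicate block, 3 paired promoters were called in Kdm2a/b-JmjC, 14 in Kdm2a-CXXC and 0 in the other lines, and over all promoters 62, 0, 188 and 5 against 13, 0, 0 and 0 without it (Kdm2a/b-JmjC first, then both proteins, KDM2A and KDM2B without ZF-CxxC). TMM scaling called 0, 17, 0 and 1 of all promoters and no filter 0 in each line. The balance gave 0 calls in each line under every alternative. The adjusted p of Kdm5a and Ccdc77 was 0.0464 with a pseudocount of 5 and 0.0731 to 0.307 under the other 9 alternatives.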
